A study of Mus musculus with 12 samples.

Results

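The protein genes of the small (40S) subunit of the cytosolic ribosome were followed in the left ventricle of the mouse heart, in ribosome-protected fragments and in messenger RNA. The set holds 27 of the 21669 transcript names counted in every library: *Rpsa*, *Rps2*, *Rps3*, *Rps3a1*, *Rps4x*, *Rps6*, *Rps7*, *Rps9*, *Rps10*, *Rps12*, *Rps13*, *Rps14*, *Rps15*, *Rps15a*, *Rps16*, *Rps18*, *Rps19*, *Rps20*, *Rps21*, *Rps23*, *Rps24*, *Rps25*, *Rps26*, *Rps27a*, *Rps28*, *Rps29* and *Fau*. They were chosen by name as standard 40S protein genes, each with 1 counted transcript, and all 27 passed the filter on low counts in both assays. Adult wild-type (WT) hearts were compared with adult hearts of Rpl3l-/- mice (KO), which lack a muscle-enriched paralog of a large-subunit protein. The strain, sex, exact age and design of the Rpl3l allele were not given in the sources used here. Each genotype had 3 footprint (RPF) libraries, from lysate digested with RNase I, and 3 RNA libraries, from undigested lysate of the same kind of tissue after poly(A) selection. Cycloheximide, which holds ribosomes on the mRNA, was present in every lysate.

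The small subunit binds the mRNA, scans for the start codon and holds the decoding centre, where codon and anticodon are matched. Each of its proteins is made in the cytoplasm, carried to the nucleolus and built onto ribosomal RNA, and most are needed for that RNA to mature. Messenger RNAs of ribosomal proteins are 5′ TOP mRNAs: they start with a C followed by a run of pyrimidines, through which LARP1 and mTOR signalling hold them out of polysomes or release them when growth signals change.

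The annotated start sites of these genes in RefSeq (GRCm38.p6) are shown because the TOP run is the feature the mRNAs share and the one tied to their translation. *Rps14* was left out here by where it lies in the genome, a limit not put on the shares over all genes. No entry was read for *Rps20*, *Rps27a* and *Rps29* either, so start sites were read for 23 of the 27 genes. In 6 of them the annotated first base opened a run of at least 5 pyrimidines led by C, read on the transcribed strand, against 3.01% of all 27025 genes, each counted once over its entries. A C followed by at least 4 more pyrimidines lay within 10 bases of an annotated start in 14 of the 23, against 34.4% of all genes counted in the same way. Each line gives 10 bases before the annotated start and 15 from it, 5′ to 3′, with the run of pyrimidines that opens the transcript in capitals. *Rps23*, whose footprints are described on their own below, is printed with them: its annotated start opens with a purine, and a run of this kind begins 3 bases further on, so it is among the 14.
Rps6: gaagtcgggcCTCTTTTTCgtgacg
Rps10: gcgcacgcccCTTCCTTTCCagcct
Rps15a: tttctgccatCTTCCCTCgccggtg
Rps18: cacttccgctCTCTCTTCCacagga
Rps21: aggacccgccCTCCTgcccaatagt
Fau: gcccccacttCTTCCTCTTTCTTga
Rps23: cggctgggcggggcttcccgcaatg
The windows lie at chr4:86857353-86857377, minus strand (*Rps6*); chr17:27635230-27635254, minus strand (*Rps10*). Those of *Rps15a* and *Rps18* lie at chr7:118116133-118116157, minus strand and at chr17:33955651-33955675, minus strand. Those of *Rps21*, *Fau* and *Rps23* lie at chr2:180257369-180257393, plus strand, at chr19:6057937-6057961, plus strand and at chr13:90923112-90923136, plus strand. *Fau* had the longest run and *Rps21* the shortest of the 6. An annotated start can differ from the one used in the heart by some bases, so a missing run says only that these letters are not in this window.

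Total counts ranged from 6635242 to 8459004 in the RNA libraries and from 3827862 to 7474602 in the RPF libraries. Mitochondrially encoded mRNAs took 49.8% to 58.2% of RNA counts and 2.28% to 5.22% of RPF counts. The targeted gene *Rpl3l* was lower in each KO library than in each WT library of the same assay. Ventricular tissue showed the 6 cardiomyocyte markers (*Myh6*, *Tnnt2*, *Tnni3*, *Actc1*, *Ryr2*, *Pln*) in every library. One RPF library stood apart: on the first principal component (37.4% of the variance over genes) WT 1 scored 60.8 and the other 5 between -14.7 and -7.9. It also had the most of the kidney gene *Slc34a1*, a marker picked with earlier results known and at 0 in every RNA library, at 121 CPM against 8.50 to 31.9, in the other 5, and the least of the 4 erythroid markers, at 314 CPM against 605 to 1379. In RNA the first component (47.9%) set WT 1, WT 2 and KO 2 (18.4 to 24.0) apart from WT 3, KO 1 and KO 3 (-24.0 to -18.2). Below, CPM are counts on library totals scaled by edgeR, folds come from its quasi-likelihood fits over all genes, and a call means an adjusted p below 0.05. The counts of these genes need care, because most have processed pseudogenes of near-identical sequence and how reads with several matches were counted was not given in the sources used here.

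The small-subunit mRNAs carried far fewer footprints than their RNA level would give at the ratio of the median gene. The median log2 ratio of footprints to RNA over the 27 genes was -4.53 in WT and -4.59 in KO, that is 23.1-fold and 24.0-fold lower in footprints. Over all 8044 genes tested in both assays the median was 0.05 in WT and 0.08 in KO. All 27 were called lower in footprints in each genotype, where 35.6% of all genes were called lower in WT and 34.7% in KO. In each genotype 25 of the 27 lay below the 5th percentile of all genes, which was -3.14 in WT. In this comparison all 12 libraries were put on 1 scale that sets the typical gene near 0, so the ratio is not a number of ribosomes per mRNA. On that scale every footprint library lay below every RNA library of its genotype for all 27 genes, against 36.6% of all genes in WT and 37.1% in KO. Without any such scaling, the 27 genes took 4.74% to 5.56% of the nuclear-encoded counts in the RNA libraries and 0.243% to 0.457% in the RPF libraries. Whether reads over the whole transcript or the coding sequence were counted was not given in the sources used here, and a difference in that region between assays would move each ratio.

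**Figure D1:**
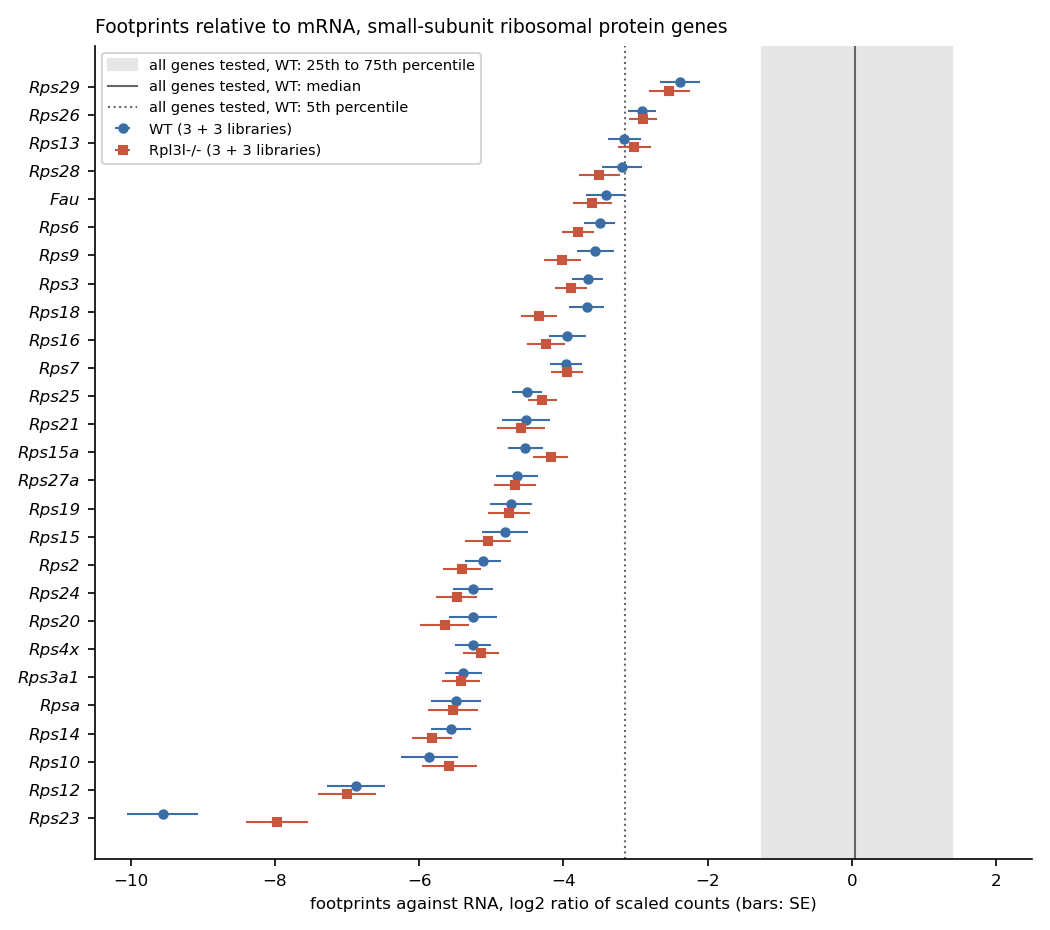
Log2 ratio of footprints to RNA (x axis) for each of the 27 genes (y axis), in WT (circles) and Rpl3l-/- (squares) hearts, with SE bars from the fit. The grey band spans the 25th to the 75th percentile of all genes tested in WT, the solid line is their median and the dotted line their 5th percentile. All 27 genes lie left of the band, from *Rps29* at the top to *Rps23* at the bottom.

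*Rps29*, the smallest of the proteins (56 residues) and a zinc-binding part of the subunit's head, had the highest ratio. On the common scale its RNA level was 864, 660.2 and 437 CPM in the WT libraries 1 to 3 and 478, 847 and 677 CPM in KO. Its footprints were at 107, 172 and 95.8 CPM in WT and 123, 117 and 107 CPM in KO. RNA was highest in WT 1 and KO 2 and footprints in WT 2, and the genotypes overlapped in both assays. The fitted log2 ratio was -2.39 (SE 0.28) in WT (adjusted p = 8.7e-07) and -2.53 (SE 0.28) in KO (adjusted p = 4.9e-07).

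*Rps26*, which lines the mRNA exit channel, and *Rps13*, a protein of the subunit's body, followed with -2.91 (SE 0.20) and -3.15 (SE 0.23) in WT. *Rps26* had RNA levels of 604, 507 and 451 CPM in WT and 454, 539 and 480.4 CPM in KO. Its footprints were at 55.6, 85.8 and 66.5 CPM and 57.5, 70.7 and 70.1 CPM. *Rps13* RNA was at 1239, 978 and 779 CPM in WT and 879, 1056 and 876 CPM in KO, and its footprints at 82.2, 147 and 108 CPM and 111, 126 and 109 CPM. Both genes had their highest footprint level in WT 2 and their lowest in WT 1, and the genotypes overlapped.

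At the low end, the 3 genes with the smallest ratios in WT were *Rps23*, *Rps12* and *Rps10*. *Rps12* sits in the beak of the small subunit's head. Its RNA level was 3079.5, 2656 and 1672 CPM in WT and 1852, 2942 and 2011 CPM in KO, against footprints of 11.9, 27.2 and 24.1 CPM and 16.1, 24.9 and 11.9 CPM. The log2 ratio was -6.88 (SE 0.40) in WT and -7.00 (SE 0.40) in KO. *Rps10*, a head protein ubiquitinated when ribosomes collide, had RNA levels of 465, 433 and 258 CPM in WT and 280.2, 443 and 217 CPM in KO. Its footprints, at 3.68, 9.06 and 7.31 CPM and 8.54, 6.44 and 4.27 CPM, varied more between libraries than those of most members, with WT 1 and KO 3 lowest. Its log2 ratio was -5.86 (SE 0.39) in WT and -5.58 (SE 0.38) in KO. *Rps23* is described on its own below.

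*Rps6*, *Rpsa*, *Rps27a* and *Fau*, which were named beforehand, lay between these ends. *Rps6*, the subunit's main phosphorylated protein and the substrate of the S6 kinases downstream of mTOR, had a log2 ratio of -3.50 (SE 0.21) in WT and -3.80 (SE 0.22) in KO. Its RNA was at 1624, 1299 and 1350.2 CPM in WT and 1490.1, 1584 and 1421 CPM in KO, and its footprints at 97.0, 167 and 114 CPM and 96.6, 122 and 104 CPM. Its RNA levels overlapped between the genotypes, and its footprints were highest in WT 2.

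*Rpsa* encodes the longest of the proteins (295 residues), which is also known as the laminin receptor. Its log2 ratio was -5.49 (SE 0.34) in WT and -5.53 (SE 0.34) in KO. Its RNA was at 5005, 4067 and 2975 CPM in WT and 3102, 4127 and 3228 CPM in KO, and its footprints at 49.8, 139 and 79.5 CPM and 70.6, 85.1 and 70.8 CPM. WT 1 had the highest RNA level and the lowest footprint level of *Rpsa*.

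A pair of the proteins are made as fusions: *Rps27a* encodes ubiquitin joined to a ribosomal protein, and *Fau* a ubiquitin-like protein joined to one. *Rps27a* RNA was at 2341, 1729.5 and 1279.8 CPM in WT and 1459, 1995 and 1440.2 CPM in KO, with footprints at 50.2, 95.5 and 69.0 CPM and 57.4, 77.4 and 56.6 CPM. Its log2 ratio was -4.64 (SE 0.29) in WT and -4.68 (SE 0.29) in KO. *Fau* RNA was at 955, 765 and 626 CPM in WT and 686, 906 and 671 CPM in KO, with footprints at 43.4, 103 and 74.8 CPM and 60.1, 64.1 and 62.5 CPM. Its log2 ratio was -3.41 (SE 0.27) in WT and -3.60 (SE 0.27) in KO. The genotypes overlapped for both genes in both assays.

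Among the other 17 genes the WT ratio ran from -5.56 (*Rps14*, a platform protein) to -3.19 (*Rps28*, at the mRNA exit). SEs over the 27 genes lay between 0.20 and 0.50 in WT, so the order of close neighbours is within error. Across the members the WT ratio had a Pearson r of -0.24 (Spearman rho -0.28) with log2 coding length, a description over 27 genes that share all libraries. With the WT RNA level it was -0.19 (rho -0.46), and -0.53 (rho -0.60) without *Rps23*, a relation in which the RNA level enters both measures. All called values kept their direction and call for the genes followed under every alternative tried, except that *Rps23* was not tested under a mean of at least 50 counts.

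Reads of these genes can match other loci, and this was measured on the GENCODE M21 transcripts. In 10 of the 27 genes every 28-base window of the coding sequence also occurs in a transcript of another gene, mostly processed pseudogenes. These 10 held both ends of the range, *Rps29* at -2.39 and *Rps23* at -9.56. Their median WT ratio was -3.72, and that of the 17 genes with some window of their own -4.73. In many of these 17 that part was small, as in *Rps7* (0.896% of windows) and *Rps25* (1.71%). The split is therefore not one of shared against unshared genes. The largest part was 77.4% in *Rps3*, whose WT ratio was -3.66. The share of windows found in no other gene had an r of 0.16 and a rho of -0.07 with the ratio over the 27 genes. Only 3 members share windows with a transcript that is itself in the count tables. *Rps18* is the main one: 391 of its 432 windows occur in *Gm10260* or *Gm11361*, counted names that held 2 to 5 and 0 to 1 counts per RNA library and 0 counts in each RPF library.

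Per kilobase of coding sequence the small-subunit genes were among the more densely footprinted genes, and their mRNAs were abundant. The median member had 264 footprint CPM per kb in WT and 234 in KO, against 13.3 and 13.4 for the median of all genes tested with a known coding length. In each genotype 26 of the 27 lay above that median, all but *Rps23*. *Rps29* led with 1270.2 ± 421 in WT and 1159 ± 78.9 in KO (mean ± SD of 3 libraries, as for the densities that follow). *Rps9*, a body protein that affects decoding accuracy, followed in WT with 470.0 ± 184 and came behind *Rps13* in KO with 338 ± 16.9. *Rps13* was at 428 ± 126 in WT and 435 ± 33.3 in KO, so their order in WT is within their spread, while in KO every library of *Rps13* lay above every library of *Rps9*.

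The lower end of the density was made of the same genes in both genotypes, *Rps12*, *Rps18*, *Rps10* and *Rps23*. *Rps12* had 91.8 ± 35.5 footprint CPM per kb in WT and 75.8 ± 28.1 in KO. *Rps18*, a head protein at the contact with the large subunit, had 67.4 ± 22.8 and 42.7 ± 4.94. *Rps10* had 23.3 ± 9.65 and 22.1 ± 7.38. Without *Rps23* the highest and the lowest member differed 54.4-fold in WT, although the subunit holds its proteins in equal numbers. These densities are not rates of synthesis, since the counted region and the handling of shared reads are not known. Of the 28-base coding windows, another gene shares all in *Rps29* and *Rps12*, 97.5% in *Rps10* and 93.5% in *Rps18*. The part of this in the range was not tested. In RNA per kb of transcript all 27 lay above the median of all genes, with a member median of 890.4 CPM per kb in WT against 2.34.

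**Figure D2:**
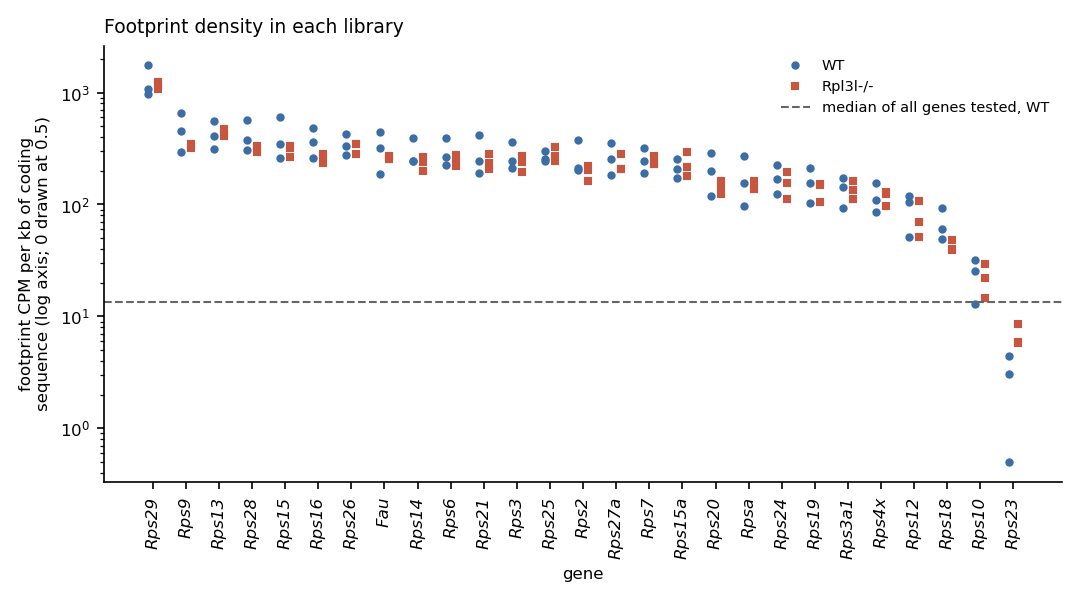
Footprint CPM per kb of coding sequence (y axis, log scale) of each gene (x axis, ordered by the WT mean), 1 point per RPF library, with WT as circles and Rpl3l-/- as squares. The dashed line is the median of all genes tested in WT. *Rps29* lies highest and *Rps23* below the line in all 6 libraries, with its count of 0 in WT 1 drawn at 0.5.

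Most of the set moved together between the libraries at its extremes, and that movement was larger than the difference between the genotypes. Summed over the 27 genes, footprints were at 2399, 4508 and 3065 CPM in the WT libraries 1 to 3 and 2671, 3079.5 and 2768 CPM in the KO libraries. The lowest and the highest library of all 6 were both WT, WT 1 and WT 2. Of the 27 genes, 24 were highest in WT 2 (all but *Rps15a*, *Rps23* and *Rps25*, which were highest in KO 2), and 16 were lowest in WT 1. The rest were lowest in KO 1 (4), KO 2 (3), KO 3 (3) or WT 3 (1). In WT 2, 26 of the 27 lay above their own 6-library mean, against 51.7% of all genes. In WT 1, 0 did, against 50.2%. In WT 3 and KO 2 the set was divided, with 16 above, against 53.0% and 53.8% of all genes. In KO the sums stayed closer together, at 2839 ± 213 CPM against 3324 ± 1078 CPM in WT (each mean ± SD of 3 libraries).

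RNA showed another order on these scaled CPM. Summed RNA levels were 28713, 23487 and 19423 CPM in WT and 20681, 26237 and 20967 CPM in KO. WT 1 was highest for 25 of the 27 genes, and KO 2 for the other 2, *Rps23* and *Rps24*. The lowest library was WT 3 for 13 genes, KO 3 for 8, KO 1 for 4 and WT 2 for 2. The median member lay 0.33 above its own 6-library mean in RNA WT 1 (log2), where the median of all genes lay at -0.00. In RPF WT 1 it lay at -0.38 and in RPF WT 2 at 0.56, against 0.00 and 0.01 for all genes. The rank of WT 1 in RNA rests on the scaling: of unscaled nuclear-encoded counts the set took 5.54, 5.12 and 4.74% in WT and 4.97, 5.56 and 5.15% in KO, and of all counts 2.39, 2.14 and 2.21% and 2.11, 2.39 and 2.58%. KO 2 was highest by the first share and KO 3 by the second. In footprints WT 1 was lowest and WT 2 highest by both shares as well. Whether RNA and RPF libraries of the same number come from 1 heart is not stated in the labels.

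Levels of other cell types' markers also differed between libraries. In RNA, WT 1, WT 2 and KO 2 had the highest sums for the set, the libraries that the first component set apart, and also for 2 of the 8 marker lists detected. The 6 cardiomyocyte markers summed to 34646, 30562 and 26521 CPM in WT and 25463, 29988 and 25125 CPM in KO, and the 3 adipocyte markers (*Adipoq*, *Plin1*, *Cfd*) to 77.7, 215 and 73.7 CPM and 46.4, 151 and 70.0 CPM. In RPF, WT 2 and KO 2 had the highest sums within their genotype for the set and for 3 of 9 lists. Adipocyte markers were at 93.4, 434 and 163 CPM in WT and 134, 279.7 and 183 CPM in KO, the 5 fibroblast markers at 3481, 3616 and 3003 CPM and 3144, 3874 and 3498 CPM, and the 3 atrial markers at 966, 1395 and 975 CPM and 1216, 1488 and 1376 CPM. Cardiomyocyte markers differed from the set in RPF, with 91543, 89114 and 78644 CPM in WT and 83117, 88849.6 and 88042 CPM in KO, highest in WT 1, where the set was lowest. Apart from the kidney gene *Slc34a1*, at 0 in every RNA library, no gene of these lists was at 0 in any library. The comparison of orders was made after the values were seen. The part of these markers in the set's level was not tested. In bulk tissue, fewer cells of a type and less RNA per cell cannot be told apart.

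The balance of the set with the large subunit varied less between libraries than its level did. The ratio of the summed small-subunit CPM to that of the large-subunit list lay between 0.780 and 0.796 in RNA WT and between 0.798 and 0.803 in RNA KO. In footprints it lay between 0.571 and 0.588 in WT and between 0.584 and 0.597 in KO. The ratio carries no test, since it was chosen with earlier results known.

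**Figure D3:**
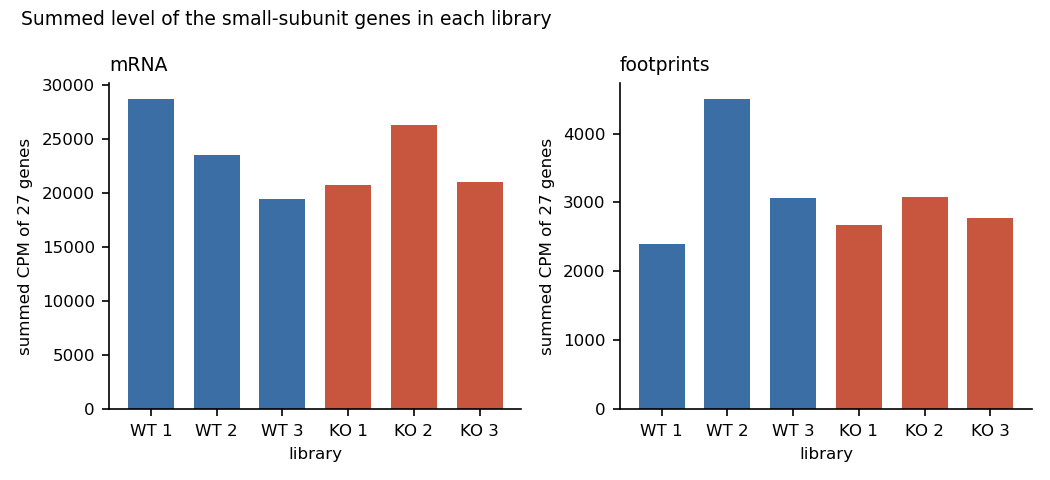
Summed CPM of the 27 genes (y axis, from 0) in each library (x axis), in RNA on the left and footprints on the right, with WT in blue and Rpl3l-/- in red. Each bar is 1 library, so there is no error bar. On these scaled CPM WT 1 is the highest RNA library and the lowest footprint library, and in RNA that rank does not hold for unscaled shares.

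**Figure D4:**
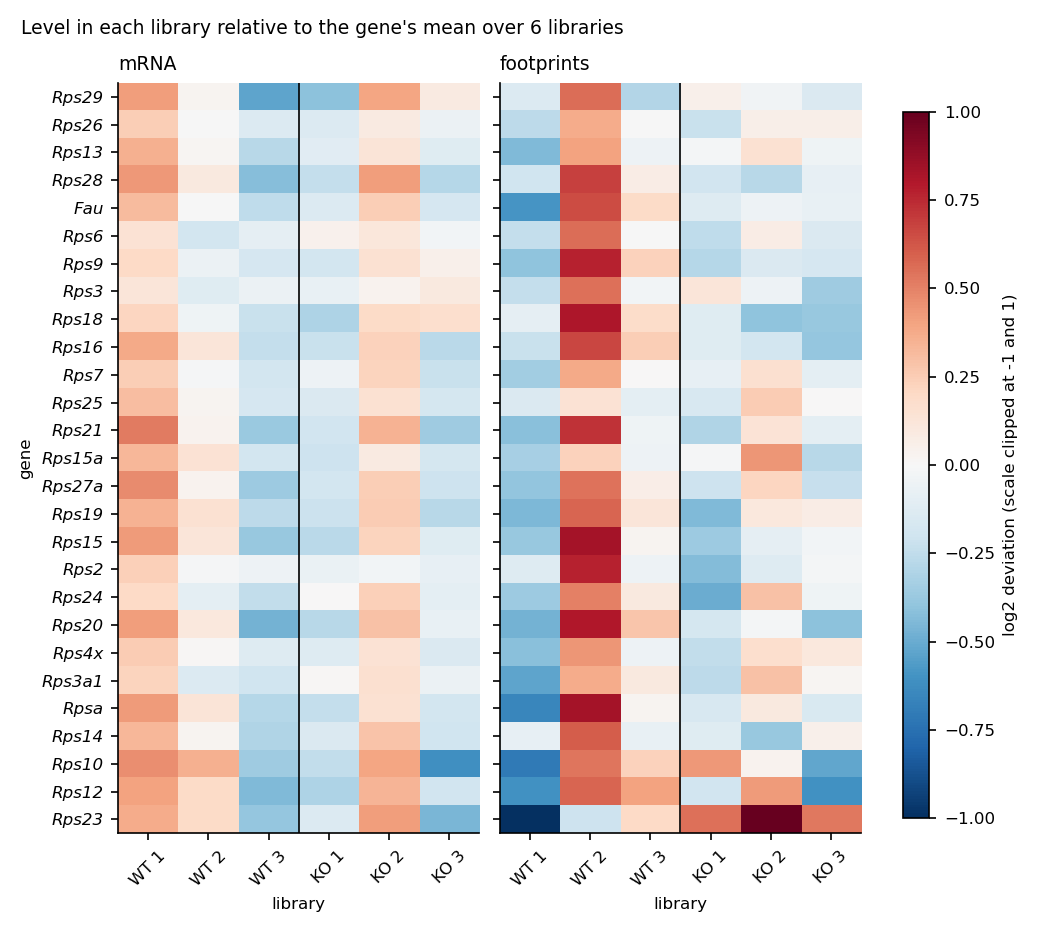
Log2 level of each gene (rows) in each library (columns) relative to the mean of that gene over the 6 libraries of the assay, with red above and blue below the mean and the colours clipped at -1 and 1. In RNA the WT 1 column is red for all 27 genes. In footprints the WT 1 column is blue for all 27. The WT 2 column is red for 26 of them and blue for *Rps23*, whose row is reddest in KO 2.

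The design asks whether loss of *Rpl3l* changes footprints, mRNA or their ratio. In footprints no small-subunit gene was called different between KO and WT, and most leaned lower. Of the 27 genes, 22 had a lower and 5 a higher fitted level in KO, with a median log2 fold change of -0.21 against 0.00 over all 11153 genes tested. edgeR called 0 of the 27, where 0.00897% of all genes were called. DESeq2 also called 0 of them. At an unadjusted p below 0.05 edgeR counted 3 of 27, all lower, where the background was 5.96% of all genes. The lean rests on 1 library: without WT 2 the median was 0.07 and 19 of the 27 were higher, while without WT 1, the library that stood apart, it was -0.40.

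The 3 genes are *Rps18*, *Rps16* and *Rps9*. *Rps18* footprints were at 22.6, 42.7 and 27.5 CPM in WT and 22.2, 18.2 and 18.4 CPM in KO. All 3 KO libraries lay below all 3 WT libraries, KO 1 and WT 1 by a narrow margin. *Rps18* alone of the 27 showed this arrangement in this direction, as did 5.77% of all genes. Its log2 fold change was -0.65 (SE 0.25) (adjusted p = 0.834 in edgeR). Its RNA, at 145, 122 and 107 CPM in WT and 101, 143 and 141 CPM in KO, overlapped between the genotypes.

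*Rps16*, whose tail reaches the tRNA in the peptidyl site, had footprints at 116, 215 and 159.9 CPM in WT and 124, 119 and 103 CPM in KO. Only WT 1 lay within the KO range, and the log2 fold change was -0.50 (SE 0.19) (adjusted p = 0.834). *Rps9* was at 172, 387 and 266 CPM in WT and 187, 205 and 202 CPM in KO, where WT 1 lay below all 3 KO libraries and WT 2 and WT 3 above them, with -0.47 (SE 0.21) (adjusted p = 0.834). *Rps20*, a head protein at the mRNA entry side, had 42.6, 104 and 71.9 CPM in WT and 52.6, 58.6 and 44.4 CPM in KO and overlapped, with -0.48 (SE 0.25) (adjusted p = 0.835).

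The genes with a higher fitted level in KO were *Rps23*, *Rps15a*, *Rps25*, *Rps13* and *Rps3a1*, and apart from *Rps23* all were within 0.12 of 0. *Rps15a*, a body protein, had footprints at 67.3, 99.6 and 81.8 CPM in WT and 84.2, 115 and 70.0 CPM in KO (0.12 (SE 0.20), adjusted p = 0.954). *Rps25*, a head protein that many viral internal ribosome entry sites need, was at 93.0, 113 and 96.2 CPM and 91.9, 122 and 103 CPM (0.07 (SE 0.16), adjusted p = 0.970). Both overlapped between the genotypes. *Rps6*, *Rpsa*, *Rps27a* and *Fau* had log2 fold changes of -0.24, -0.26, -0.18 and -0.26, with SEs from 0.18 to 0.26.

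At the RNA level the small-subunit genes were close to equal in the genotypes. The median log2 fold change was -0.08 against -0.01 over all 8379 genes tested, with 20 genes lower and 7 higher. The range was narrow, from -0.29 (*Rps10*) to 0.09 (*Rps24*), with SEs from 0.16 to 0.29. edgeR and DESeq2 each called 0 of the 27, where edgeR called 0.0119% of all genes, and 0 of the 27 had an unadjusted p below 0.05, against 2.54% of all genes. In 0 of the 27 did the genotypes not overlap, against 7.33% of all genes. Without WT 1, the library with the most small-subunit RNA on scaled CPM, the median was 0.09 and 21 of the 27 were higher. As an unscaled share of nuclear-encoded counts the set was not lower in KO, at 5.13% ± 0.40 in WT and 5.23% ± 0.30 in KO (mean ± SD of 3 libraries), a difference smaller than either SD.

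The lowest RNA fold changes belonged to *Rps10* (-0.29 (SE 0.29)), *Rps15a* (-0.20 (SE 0.19)) and *Rpsa* (-0.20 (SE 0.22)), and the highest to *Rps24*, *Rps6* and *Rps3a1*. *Rps15a* RNA was at 703, 617 and 490.3 CPM in WT and 484, 594 and 493 CPM in KO. *Rps24*, a body protein mutated in some families with Diamond-Blackfan anaemia, was at 960.5, 783 and 704 CPM in WT and 839, 986 and 780.4 CPM in KO (0.09 (SE 0.19)). *Rps3a1*, a protein at the mRNA exit side, was at 1691, 1318 and 1262 CPM and 1465, 1625 and 1395 CPM (0.07 (SE 0.18)). *Rps6* RNA differed by 0.08 (SE 0.17). All 6 genes overlapped between the genotypes, and their adjusted p-values in edgeR were 0.999.

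Translational efficiency (TE), tested as the difference in the footprint-to-RNA ratio between genotypes, was called for no small-subunit gene. The median log2 difference was -0.12 against 0.01 over all 8044 genes, with 19 genes lower and 8 higher. edgeR and DESeq2 each called 0 of the 27, where edgeR called 0.0% of all genes. An unadjusted p below 0.05 was reached by 1 of the 27, *Rps23*, a share near the 3.73% of all genes. That gene was singled out beforehand and passed the footprint filter through KO alone, so its p is not a fair test. *Rps18* came next with -0.66 (SE 0.32) (adjusted p = 0.9997 in edgeR). *Rps9* had -0.46 (SE 0.32) and *Rps20* -0.39 (SE 0.40), and at the upper end *Rps15a* had 0.35 (SE 0.30) and *Rps10* 0.27 (SE 0.48). *Rps6*, *Rpsa*, *Rps27a* and *Fau* had -0.30, -0.04, -0.03 and -0.19. The sign of the median depended on single libraries: it was 0.16 without the WT 2 libraries, 0.05 without WT 3, 0.0061 without KO 2 and -0.51 without WT 1.

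**Figure D5:**
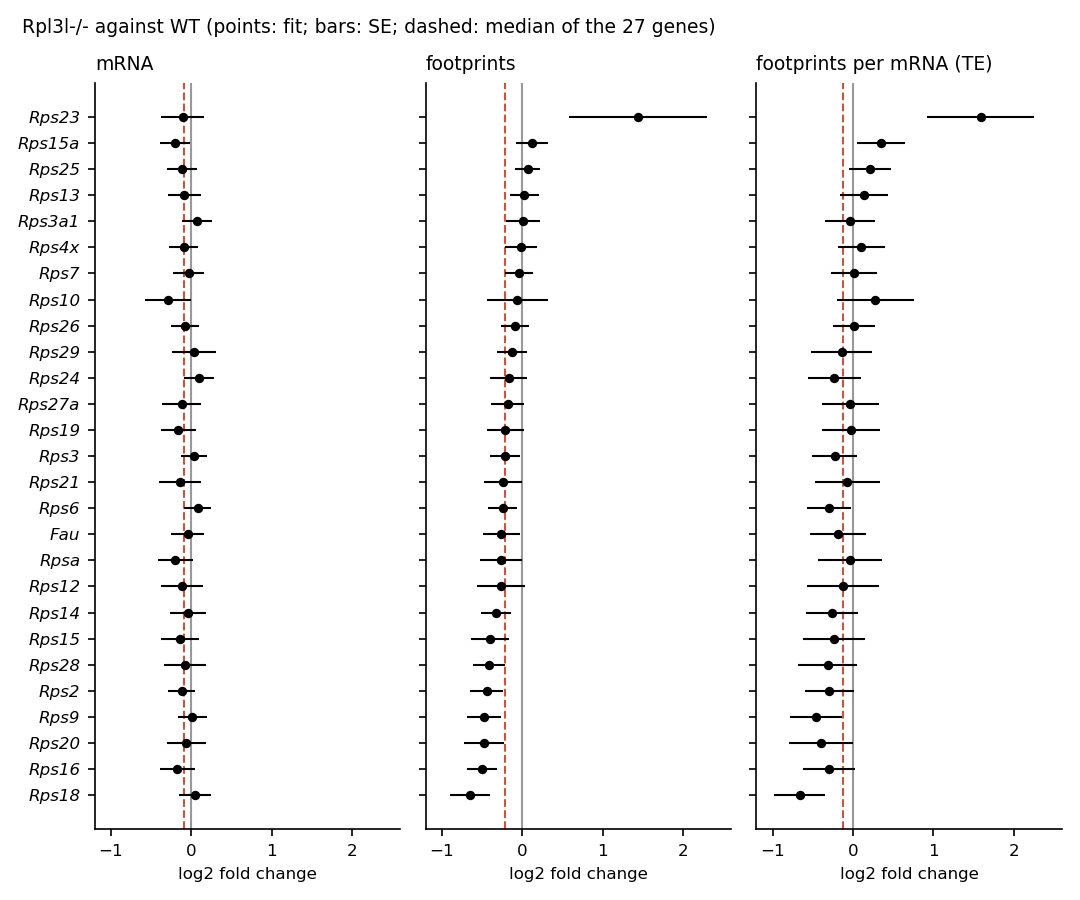
Log2 fold change of KO against WT (x axis) for each gene (y axis) in RNA, in footprints and in footprints per RNA (TE), with SE bars from the fits, the median of the 27 genes as a dashed line and 0 as a solid line. *Rps23* lies far to the right with the widest bars in footprints and TE, and most other footprint points lie left of 0.

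*Rps23* encodes a protein of the decoding centre, where it contacts the codon and anticodon and affects accuracy. It stood apart from the other 26 genes in footprints, and it was already singled out in earlier results of these data, so its values are a description by library. The WT libraries 1 to 3 held 0, 5 and 9 of its footprint counts and the KO libraries 19, 25 and 12, in sum 14 and 56. No other member had fewer than 31 counts in any RPF library. Every KO library lay above every WT library, both in counts and in CPM (0, 1.32 and 1.90 in WT, 2.56, 3.67 and 2.52 in KO). *Rps23* alone of the 27 was arranged this way, as were 6.27% of all genes.

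Its RNA was not low: the WT libraries held 2186, 2122 and 1764 RNA counts and the KO libraries 1484, 2158 and 1738, and the genotypes overlapped. The fitted footprint fold change was 1.44 (SE 0.86) on the log2 scale (adjusted p = 0.849 in edgeR). In TE it was 1.59 (SE 0.67) (adjusted p = 0.9997 in edgeR). That fit shares 1 estimate of the spread over both assays, so its SE is not one of the footprint counts alone. The gene passed the filter on low counts through KO alone, since 0 of 3 WT and 3 of 3 KO libraries reached the 2.07 CPM that 10 counts stand for. Leaving out 1 library moved the footprint fold change between 0.84 (without WT 1) and 2.21 (without WT 3). A count of 0 in WT 1 allows up to 0.617 CPM, from 3 counts.

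Shares within the set do not depend on the scaling of the library. *Rps23* made up 0%, 0.0292% and 0.0621% of the summed footprint counts of the 27 genes in the WT libraries. In the KO libraries the shares were 0.0959%, 0.119% and 0.0909%. The Wilson 95% interval ran from 0.0327% to 0.118% in WT 3, the highest WT library, and from 0.0520% to 0.159% in KO 3, the lowest KO library, so these neighbours are not separated beyond counting error. In RNA its share was 1.09%, 1.17% and 0.952% in WT and 1.06%, 1.23% and 0.839% in KO.

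Among the 8044 genes that passed the filter on low counts in both assays, *Rps23* had the lowest footprint-to-RNA ratio in both genotypes. It was -9.56 (SE 0.50) in WT and -7.97 (SE 0.44) in KO (log2). Genes with too few footprints for the filter were not ranked. Its counted transcript lies at chr13:90922958-90924950, plus strand (GRCm38, GENCODE M21), with 4 exons, a coding sequence of 432 bases, 238 bases of 5′ UTR and 267 of 3′ UTR. All 405 of its 28-base coding windows occur in other genes. The processed pseudogene *Rps23-ps1* matched 425 bases of it with 0 mismatches, and *Rps23-ps2* all 432 bases with 2. Stretches of 29 bases of the coding sequence around these differences are printed because within the coding sequence only a read across one of these bases could tell the gene from that copy. The differing base is in capitals, and the substitutions, counted from 1 at the A of the start codon with the gene's base first, are C57T and G316C.
Rps23, bases 43 to 71: agtcaccgacgggaCcagaagtggcatga
Rps23-ps2, bases 43 to 71: agtcaccgacgggaTcagaagtggcatga
Rps23, bases 302 to 330: tggttgctggatttGgtcgaaaaggtcat
Rps23-ps2, bases 302 to 330: tggttgctggatttCgtcgaaaaggtcat
The other 9 fully shared genes ran in WT from *Rps12* at -6.88 and *Rpsa* at -5.49 to *Fau* at -3.41 and *Rps29* at -2.39. How shared reads were assigned was not tested.

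The genes whose footprint level ran most like that of *Rps23* over the 6 RPF libraries were *Tmx4* (Pearson r 0.997 of log2 CPM), *Fam49b* (0.990), *Bloc1s2* (0.988), *Taf5l* (0.986) and *Fancm* (0.985). They are the 5 highest of 11153 genes over 6 points, so the values describe the choice. Without KO 2, its highest library, the 5 were *Nrros*, *Tkfc*, *Tmx4*, *Gng2* and *Azi2*, of which *Tmx4* alone was in both lists. No small-subunit gene was among them: the closest, *Rps3a1*, had r 0.65.

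Lists fixed around the set place these values. The 43 large-subunit genes tested had a median footprint-to-RNA log2 ratio of -4.01 in WT and -4.09 in KO, with 42 called lower in each. Of 20 other mRNAs with a TOP start, such as those of elongation factors, 18 were called lower in WT and 19 in KO, with medians of -1.91 and -2.00. The 37 assembly factors of the small subunit tested had medians of 0.35 and 0.14, with 16 called higher and 15 lower in WT. The 19 genes of growth signalling and initiation had 0.75 and 0.65, with 11 called higher and 5 lower in WT. Of all genes 38.3% were called higher and 35.6% lower in WT, shares near those of the assembly factors.

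Between genotypes none of these lists had a called gene in footprints, RNA or TE. In footprints 40 of the 43 large-subunit genes were lower in KO (median -0.22), close to the small-subunit median of -0.21. The other TOP mRNAs had a median of -0.04 with 12 of 20 lower. The 39 assembly factors had -0.04 with 23 lower, and the 22 signalling genes 0.01 with 10 lower. In RNA the medians of the 4 lists lay between -0.09 and 0.02.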

How the data were processed

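The authors deposited 1 table of raw counts per library, with a whole number for each transcript name. The submitters' processing notes name cutadapt 1.18 and Bowtie2 2.4.2. The genome build, the counted region, strand and the treatment of reads with several matches were not given in the sources used here. The RNA kit keeps strand, per the labels' protocols. The series' design text calls the triplicates biological.

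Of the 21669 names, 21425 matched GENCODE M21 (GRCm38), which gave lengths and coordinates and may not be the authors' annotation. Genes had to pass filterByExpr at a minimum count of 10. TMM-scaled counts were tested with edgeR 4.0.16 (glmQLFit and glmQLFTest, R 4.3.3) with Benjamini-Hochberg adjustment over all genes tested. RPF and RNA were each fitted on 6 libraries by genotype. TE and footprints against RNA came from 1 fit of all 12 libraries on 1 scale, with assay, genotype and their interaction. An SE is the size of the log2 fold change over the root of its F statistic. Per-library log2 levels added 0.5 to CPM. Densities used coding length for RPF and transcript length for RNA. Shares have Wilson 95% intervals; these and the limit of 3 counts for a count of 0 cover counting error only, since amplified copies cannot be recognised. The fits were tested on simulated counts with 200 changed genes. Of 2-fold rises put in, 58.0% were recovered in RPF, 42.0% in RNA and 6.52% in TE. Of 4-fold rises it was 100%, 100% and 83.0%, and of falls to a fold of 0.25 it was 77.8%, 92.9% and 87.0%. The changed genes were drawn from all that passed the filter, and the rates were not measured for the small-subunit genes alone. For a gene of that kind a missing call leaves a 2-fold change (1 in log2) possible, most of all in TE. The small-subunit genes had median SEs of 0.21 in RNA, 0.21 in RPF and 0.32 in TE, against 0.27, 0.26 and 0.37 over all genes. Their log2 fold changes ran from -0.29 to 0.09, from -0.65 to 1.44 and from -0.66 to 1.59.

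The members and lists were chosen with earlier results of these data known. Values were given by rule for *Rps23*, *Rps6*, *Rpsa*, *Rps27a*, *Fau* and the 3 highest and 3 lowest members of each comparison between genotypes and of the WT footprint-to-RNA ratio. Alternatives were median-of-ratios scaling, DESeq2 1.42.0, no filter, a stricter filter (mean count of 50 or more), mitochondrial and top 10 genes left out, a replicate block, all 12 libraries in 1 fit, and leaving out each replicate in turn.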

Additional observations from a re-analysis of the deposited data

How the results depend on the processing

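Of 543 values of single small-subunit genes under alternatives, 515 kept their direction and side of the threshold and 28 reversed, all of them uncalled differences between genotypes. The count of all genes called in RPF was 1, against 5 with DESeq2, 60 with no filter (13 higher, 47 lower), 4 with the replicate block and 1 to 2 leaving out a replicate; no small-subunit gene was called under any of them. In RNA it was 1 and 4 with no filter, and in TE 0, 1 with DESeq2 and 3 with no filter. Footprints against RNA gave 5940 calls in WT and 5842 in KO, 9030 and 8846 with no filter, and 2954 and 2912 at a mean of at least 50 counts, where fewer genes were tested. There the small-subunit median was -3.97 and -3.95 over 26 genes. Leaving out a replicate gave 5667 to 6183 calls and a median of -4.97 to -4.32 in WT, and 5373 to 6206 and -4.70 to -4.52 in KO. The small-subunit median between genotypes then ranged over -0.40 to 0.069 in RPF, -0.22 to 0.094 in RNA and -0.51 to 0.16 in TE. Log2 fold changes that reversed in at least 1 such fit ranged, in RPF, for *Fau* -0.53 to 0.062, *Rps15a* -0.10 to 0.27, *Rps25* -0.048 to 0.16, *Rps27a* -0.38 to 0.086, *Rps6* -0.40 to 0.018 and *Rpsa* -0.55 to 0.21. In RNA they ranged for *Fau* -0.20 to 0.12, *Rps23* -0.39 to 0.071, *Rps24* -0.016 to 0.22, *Rps27a* -0.31 to 0.12 and *Rps3a1* -0.011 to 0.21. In TE they ranged for *Fau* -0.62 to 0.15, *Rps10* -0.18 to 0.63, *Rps27a* -0.47 to 0.26, *Rps6* -0.55 to 0.026 and *Rpsa* -0.51 to 0.43. With no filter the TE of *Rpsa* was 0.019 and of *Rps27a* 0.023, and with the replicate block that of *Rpsa* was 0.046. The cause was not tested. Replicate numbers were not taken as pairs: correlations of same-numbered deviations were -0.18, 0.33 and 0.39 between WT and KO in RNA and 0.059, 0.03 and 0.0055 in RPF. RNA and RPF libraries of 1 number gave 0.075, 0.15 and 0.079 (WT) and 0.11, 0.11 and 0.12 (KO), so that the KO pairs alone all passed 0.1. With each number as a block footprints against RNA gave 5943 calls in WT and 5814 in KO, all 27 genes among them, and medians of -4.53 and -4.57. The block gave medians of -0.18 in RPF, -0.071 in RNA and -0.12 in TE.

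Groups of 3 libraries leave SEs of 0.16 to 0.86 in RPF. The 14 and 56 footprint counts of *Rps23* limit it most. Shared sequence leaves the source of reads uncertain over the whole coding sequence in 10 genes and over a part of it in the other 17. That part ran from 22.6% of windows in *Rps3* to 99.1% in *Rps7*. Levels moved by less than 1 SD in 19 of 20 values with unscaled totals, and shares in 20 of 20 without *Rps23* in the sum.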
